A study of Mus musculus with 4 samples.

Results

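Notch1, Notch2, Notch3, Dll1, Dll4, Jag1, Jag2, Hes1 and Hey1 are 9 genes of the Notch signaling pathway, and their expression was followed through the cells of the mouse epididymis and vas deferens. They were chosen by symbol as 3 receptors, 4 ligands and 2 targets of the pathway, out of 16892 genes in a single-cell RNA-Seq count table, and all 9 were found there. The study dissected the post-testicular male tract into caput, corpus and cauda epididymis, the successive regions of the coiled tube in which sperm mature and are stored, and the vas deferens, the muscular duct that follows. Cells were dissociated and captured in droplets (10x Chromium, V2 chemistry), where unique molecular identifiers (UMIs) count the captured transcript ends. Each of the 4 libraries was a pool of 8 dissected pieces of its region from 4 FVB/NJ male mice aged 10 to 12 weeks, with no treatment and no genetic change named, so there is 1 sample per region. No difference between regions could therefore be tested, and no p-value is given. All intervals are 95% intervals that cover counting error only.

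Notch receptors sit in the cell membrane and are bound by Delta-like (Dll) and Jagged (Jag) ligands on a neighboring cell. Binding lets proteases of the ADAM family and gamma-secretase release the receptor's intracellular part, which joins the DNA-binding protein RBPJ in the nucleus and switches on targets such as the repressors Hes1 and Hey1. In blood vessels Dll4 and Notch1 are known for their part in sprouting and in arterial identity, and in many layered epithelia the pathway separates basal from luminal fates.

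Libraries ranged from 1433 cells (caput) to 3506 cells (vas deferens) and from 4408989 to 10744928 UMIs, with median UMIs per cell between 1433 and 2207. The deposited annotation places the 8880 cells in 34 populations, which are grouped here in 7 cell types: 3956 principal, 1412 basal, 348 clear, 2222 stromal, 502 muscle, 245 endothelial and 195 immune cells. Principal cells are the secretory and absorptive cells lining the tube, basal cells lie beneath them, and clear cells acidify the lumen. Across libraries, 43 cell barcodes occurred more than once. The summed marker list of each of the 7 types was highest in the type that bears its name. For the principal list this held over all libraries but not gene by gene, since 2 of its 6 genes were highest in principal cells and 3 in basal cells, and in the caput its sum was 1820 UPM (UMIs per 1000000, defined next) in principal, 3759 in basal and 4482 in clear cells. A level is the number of UMIs of a gene per 1000000 UMIs of the same cells, written UPM, and it compares 1 gene between groups of cells, not different genes with each other. Because the authors built these populations from the same counts, differences between them are given as description.

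Promoters are shown for 4 of the 9 genes. Notch1 and Dll4 had the same highest cell type, endothelial cells, although their levels over populations were otherwise not alike (r = 0.036), and Dll1 and Jag2, both highest in basal cells, had the most similar levels over populations. The 250 bases before the RefSeq start of these 4 genes (GRCm38.p6, written 5′ to 3′ on the gene's own strand) are chr2:26503823-26504072 on the minus strand for Notch1, chr2:119325534-119325783 on the plus strand for Dll4, chr17:15376933-15377182 on the minus strand for Dll1, which has another annotated start nearer its body, and chr12:112929496-112929745 on the minus strand for Jag2. The windows of Notch1 and Jag2 lie inside the gene spans given below, which come from a different annotation with starts further upstream. Capitals mark matches on either strand to CACNAG, a sequence bound by Hes repressors.
Notch1: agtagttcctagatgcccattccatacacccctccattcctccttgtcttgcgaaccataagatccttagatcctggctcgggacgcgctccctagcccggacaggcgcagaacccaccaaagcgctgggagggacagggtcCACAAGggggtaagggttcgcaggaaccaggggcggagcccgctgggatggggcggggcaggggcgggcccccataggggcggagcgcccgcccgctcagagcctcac
Dll4: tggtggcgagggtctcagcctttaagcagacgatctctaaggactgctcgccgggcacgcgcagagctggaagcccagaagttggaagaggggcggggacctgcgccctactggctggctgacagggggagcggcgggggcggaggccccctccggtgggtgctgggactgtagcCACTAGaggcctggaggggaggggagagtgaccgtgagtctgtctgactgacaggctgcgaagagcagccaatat
Dll1: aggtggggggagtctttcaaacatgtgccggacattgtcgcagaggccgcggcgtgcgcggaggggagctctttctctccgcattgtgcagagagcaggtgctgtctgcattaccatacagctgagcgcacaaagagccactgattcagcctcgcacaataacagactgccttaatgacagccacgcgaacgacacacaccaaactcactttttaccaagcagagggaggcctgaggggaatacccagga
Jag2: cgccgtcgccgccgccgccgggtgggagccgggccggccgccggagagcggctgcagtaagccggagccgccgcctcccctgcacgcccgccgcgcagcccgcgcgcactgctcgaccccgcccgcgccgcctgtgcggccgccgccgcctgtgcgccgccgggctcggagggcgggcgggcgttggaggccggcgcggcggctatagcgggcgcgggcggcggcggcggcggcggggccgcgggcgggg
Notch1 has 1 such match, CACAAG, 108 bases before its start, and Dll4 has 1, CACTAG, 75 bases before its start, while Dll1 and Jag2 have none in these windows. Of the windows not printed, Notch2 has 1 match, Notch3 has 2 and Jag1 has none. TGGGAA, the core bound by RBPJ, and CACGTG, which some Hes and Hey proteins bind, were found on neither strand of these windows, nor in the same windows of Notch2, Notch3 and Jag1. Of 32851 mouse promoter windows of this length, 36.7% hold CACNAG, 21.6% hold TGGGAA and 6.02% hold CACGTG, so a match here describes the letters and not a site in use. Promoters of Hes1 and Hey1 are not shown.

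Endothelial cells carried the highest levels of Notch1 and Dll4 and, on few UMIs, of Notch3 and Hey1, basal cells the highest levels of Dll1, Jag1, Jag2 and Hes1, and muscle the highest level of Notch2. By a rule of size, at least 4 times the median of the 7 cell types with at least 20 UMIs in that type, 4 of the 9 genes passed in at least 1 type. All of the 4 passed in endothelial cells (Notch1, Dll1, Dll4 and Jag2), Dll1 and Jag2 also passed in basal cells, and Dll4 also passed in clear cells. The same rule was passed by 29% of the 12868 genes that could be tested, which for 9 genes would be between 2 and 3. Over the 9 genes, the median of the highest ratio to the median type was 2.94, beside 2.29 over all genes tested. Of the genes tested in each type, 12.6% passed in endothelial, 4.41% in basal and 11% in clear cells.

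**Figure D1:**
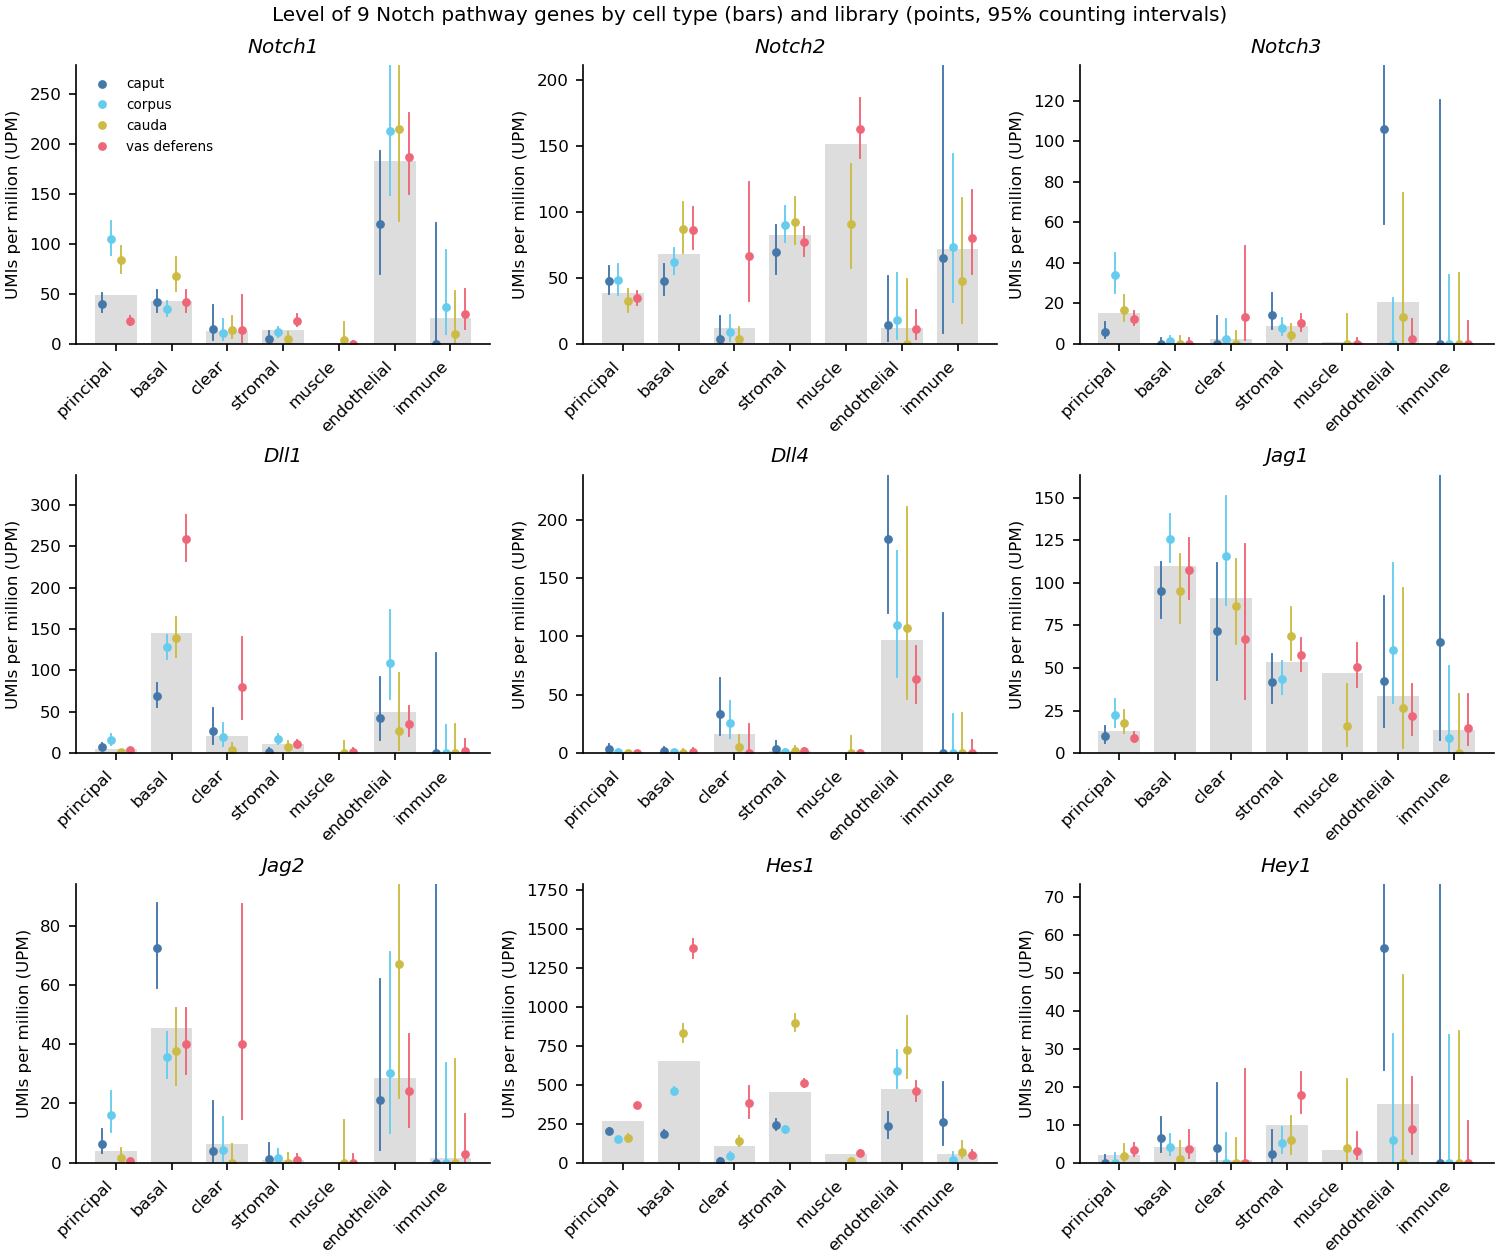
Each panel gives the level of 1 gene in UMIs per 1000000 UMIs (UPM, linear axis from 0) in the 7 cell types. Grey bars are all libraries summed, points are single libraries with at least 10000 UMIs of that type, and lines are 95% counting intervals, some of which run past the top of the panel. Notch1 and Dll4 stand highest in endothelial cells in every library, while the points of Hes1 spread widely within basal, clear and stromal cells.

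Notch1 (chr2:26457903-26516663, GRCm38, protein coding) encodes the receptor that is most studied in blood vessels and T cells, and it was read here with 1013 UMIs. Its endothelial level was 120, 213, 214 and 187 UPM in the libraries of caput, corpus, cauda and vas deferens, the order in which 4 values are listed throughout. In principal cells, next in order, it was 40.03, 104, 83.3 and 22.9 UPM. Every endothelial library was above every principal library, and the ratio of the summed levels, 183 to 49.0 UPM, was 3.74 (3.09 to 4.49), and 2.41 without the vas deferens library. Basal cells, at 43.0 UPM, overlapped with principal cells, and the order then ran through immune cells (25.8), stromal cells (13.9) and clear cells (13), each range overlapping the next. Muscle cells held 1 Notch1 UMI, a level of 0.656 UPM (0.0166 to 3.65), below each library's level in clear cells.

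The order held at equal depth. With each cell thinned to 1000 UMIs, which leaves out 45 of 245 endothelial cells and 139 of 502 muscle cells, 18% of endothelial cells (12.9 to 24) and 0% of 363 muscle cells held a Notch1 UMI, where a count of 0 allows up to 0.826%. Unthinned, the shares were 33.1% and 0.199%, at median depths of 2590 and 1803 UMIs per cell. Within the principal cells, populations differed: Notch1 stood at 193 UPM in principal 6, a population almost wholly of corpus cells, at 116 UPM in principal 10, from the cauda, and between 16.9 and 24.3 UPM in principal 12 to 15, which are from the vas deferens. Principal populations are numbered here in the order, from caput to vas deferens, of the libraries that hold them. Ribosomal protein genes took 5.40% of UMIs in principal 6 and 5.32% in principal 10, against 12.9% to 18.8% in principal 12 to 15. The part of this in the Notch1 differences was not tested.

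Notch2 (chr3:98013527-98150361, 1623 UMIs), a receptor of broad expression that is known in smooth muscle and in immune cells, had another distribution. Muscle cells showed 90.7 UPM in the cauda and 163 UPM in the vas deferens, the libraries that held enough muscle cells. Stromal cells showed 69.4, 89.9, 92.0 and 76.9 UPM from caput to vas deferens, so the ranges of muscle and stroma touched each other. Summed, muscle had 151 UPM and stroma 82.6 UPM, a ratio of 1.83 (1.56 to 2.14) that was 1.14 without the vas deferens library. Immune (72.2 UPM) and basal cells (67.9 UPM) followed, then principal cells at 38.4 UPM, and endothelial (12.0 UPM) and clear cells (11.6 UPM, 3.45 to 66.8 UPM over the libraries) were lowest. In every library the principal level, 32.2 to 47.9 UPM, lay above every endothelial level, 0 to 18.3 UPM. Notch1 was thus highest in endothelium and lowest in muscle, while Notch2 was highest in muscle and close to its lowest in endothelium. At 1000 UMIs per cell, 13.2% of muscle cells and 1.5% of endothelial cells held a Notch2 UMI, beside 28.7% and 4.08% unthinned.

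Notch3 (chr17:32120820-32166852), the receptor known from pericytes and vascular smooth muscle, was sparse, with 226 UMIs in all. Principal cells held 145 of these UMIs, at 5.80, 33.8, 16.7 and 12.4 UPM from caput to vas deferens. The corpus was highest, by a ratio of 5.83 (2.91 to 12.9) to the caput. Principal 6, with the low ribosomal share given above, stood out among populations at 54.0 UPM. Stromal cells showed 4.26 to 14.3 UPM over the libraries, muscle cells 1 UMI, basal cells 3 UMIs and immune cells none, which allows up to 5.15 UPM.

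The endothelial Notch3 level, 20.4 UPM, was nominally the highest of the 7 types, but it rested on 17 UMIs in 8 cells. By library it was 106, 0, 13.4 and 2.20 UPM, so 15 of the UMIs came from the caput. The ratio to principal cells was 1.34 (0.761 to 2.22), and it was 0.167 without the caput library, 2.13 without the corpus and 2.36 without the vas deferens. In 8 endothelial cells that carried 3 or more UMIs of a list of 6 pericyte markers (Rgs5, Kcnj8, Abcc9, Pdgfrb, Cspg4 and Higd1b), Notch3 stood at 541 UPM (303 to 893) from 15 UMIs. The other 237 endothelial cells held 2 UMIs, 2.48 UPM (0.30 to 8.95), and without the 8 cells the endothelial level was 0.163 times the principal one. Among stromal cells the same split gave 37.1 UPM (25.8 to 51.6) in 313 cells with 3 or more pericyte marker UMIs and 3.97 UPM (2.49 to 6.01) in the rest. The split was chosen after the values were seen, and the deposited annotation has no pericyte population.

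Among the ligands, Dll1 (chr17:15367354-15376872, 1095 UMIs) was foremost a basal cell transcript. Basal cells showed 69.5, 128, 139 and 259 UPM, lowest in the caput and highest in the vas deferens. Endothelial cells, next in order, showed 42.4, 110, 26.8 and 35.2 UPM, so that the corpus endothelial cells were above the caput basal cells. The summed levels of 145 and 50.3 UPM gave a ratio of 2.89 (2.12 to 4.03), which was 1.66 without the vas deferens library and 4.37 without the corpus library. Clear cells followed at 20.5 UPM and stromal cells at 10.9 UPM, while principal cells stood at 5.44 UPM, muscle held 2 UMIs and immune cells 1. After thinning, 14.3% of basal cells held a Dll1 UMI (12.3 to 16.4) against 0.475% of principal cells, and unthinned the shares were 35.3% and 1.16%, at median depths of 4333 and 934.5 UMIs.

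Dll4 (chr2:119325784-119335962), the Delta-like ligand known from arterial and sprouting endothelium, was the most restricted ligand by the rule above. Endothelial cells held 81 of its 128 UMIs, with 184 UPM in the caput library, then 110, 107 and, in the vas deferens, 63.8 UPM. Clear cells were next, at 33.8, 25.7, 5.18 and 0 UPM, all below the endothelial range, and the ratio of the sums was 5.91 (3.71 to 9.74), or 3.17 as a mean over cells of each cell's own level. All other types lay at or below 1.70 UPM, and no UMI was found in muscle (which allows up to 1.97 UPM) or immune cells (up to 5.15 UPM). Of the 24 clear cell UMIs, 12 lay in the Amylin-positive clear cells, a population from caput and corpus marked by the peptide hormone gene Iapp, with 49.8 UPM in the caput and 26.4 UPM in the corpus. The main clear cells showed 16.3, 23.1, 5.31 and 0 UPM, so that in the corpus, on 5 and 6 UMIs, the populations were close. At 1000 UMIs per cell, 9% of endothelial cells (5.42 to 13.9) and 2.94% of clear cells (1.19 to 5.97) held a Dll4 UMI, against 0.173% of basal cells. Unthinned these shares were 17.6%, 5.75% and 0.212%, at median depths of 2590, 4430 and 4333 UMIs.

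Jag1 (chr2:137081456-137116644, 1389 UMIs), the Jagged ligand of widest expression, was shared by basal and clear cells. In basal cells it showed 95, 126, 95.1 and 107 UPM from caput to vas deferens, with the corpus highest and little spread. Clear cells showed 71.5, 116, 86.4 and 66.8 UPM, overlapping with basal cells throughout, and the ratio of 110 to 91.0 UPM was 1.21 (1.0 to 1.47). Stroma (53.3 UPM), muscle (47.2), endothelium (33.5), immune cells (13.7) and principal cells (12.8) followed in an order in which each library range overlapped the next. Clear cells held 133 Jag1 UMIs, and the Amylin-positive population, at 85.0 UPM, stood close to the main clear cells at 78.1 UPM.

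Jag2 (chr12:112907819-112929776, 359 UMIs), the other Jagged ligand, was more restricted. Basal cells held 280 of its UMIs, at 72.3, 35.7, 37.6 and 39.97 UPM along the tract, so the caput was highest, by 2.02 times (1.51 to 2.72) over the corpus. This is the reverse of Dll1, whose caput level was the lowest. Endothelial cells showed 21.2, 30.4, 66.9 and 24.2 UPM and overlapped with basal cells, and the ratio of 45.3 to 28.7 UPM was 1.58 (1.04 to 2.50), or 2.79 as a mean over single cells. Stromal cells held 6 Jag2 UMIs, immune cells 1 and muscle none (up to 1.97 UPM).

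Hes1 (chr16:30064384-30067796), a transcriptional repressor and the classic target of the pathway that other signals can also switch on, was read with 10223 UMIs. Basal cells showed 183, 458, 829 and 1373 UPM from caput to vas deferens, a rise along the tract of 7.51 times (6.59 to 8.59). Endothelial cells showed 233, 590, 723 and 457 UPM, and stromal cells 242, 213, 898 and 511 UPM, both with the cauda highest. The endothelial cauda value came from 54 UMIs in 12 cells. Its interval (543 to 943) overlapped that of the corpus (479 to 720), so the endothelial peak was not resolved. The ranges of the basal, endothelial and stromal types overlapped, with sums of 653, 469 and 456 UPM. Basal cells were 1.39 times (1.25 to 1.55) the endothelial level, a ratio that reversed to 0.933 without the vas deferens library. Principal cells followed at 268 UPM, clear cells at 108 UPM, immune cells at 58.4 UPM and muscle at 55.7 UPM.

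Hey1 (chr3:8663359-8667256), a related repressor known in vessels and heart, was rare, with 126 UMIs, 64 of them in stromal cells. Stromal levels were 2.39, 5.08, 5.97 and 17.9 UPM, with the vas deferens above the rest, the highest library being 7.50 times (1.96 to 63.8) the lowest. The endothelial level of 15.6 UPM came from 13 UMIs in 10 cells, 8 of those UMIs in the caput, and it was 1.58 times (0.797 to 2.89) the stromal level, a ratio of 0.657 without the caput library and 4.95 without the vas deferens library. None of these 13 UMIs lay in the 17 endothelial cells with a pericyte marker UMI (limit 54.1 UPM). In stroma 46 of the 64 UMIs lay in cells with such a UMI, at 16.04 UPM against 4.97 UPM in the others. Basal cells stood at 4.04 UPM, and in immune cells no UMI was found (up to 5.15 UPM).

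**Figure D2:**
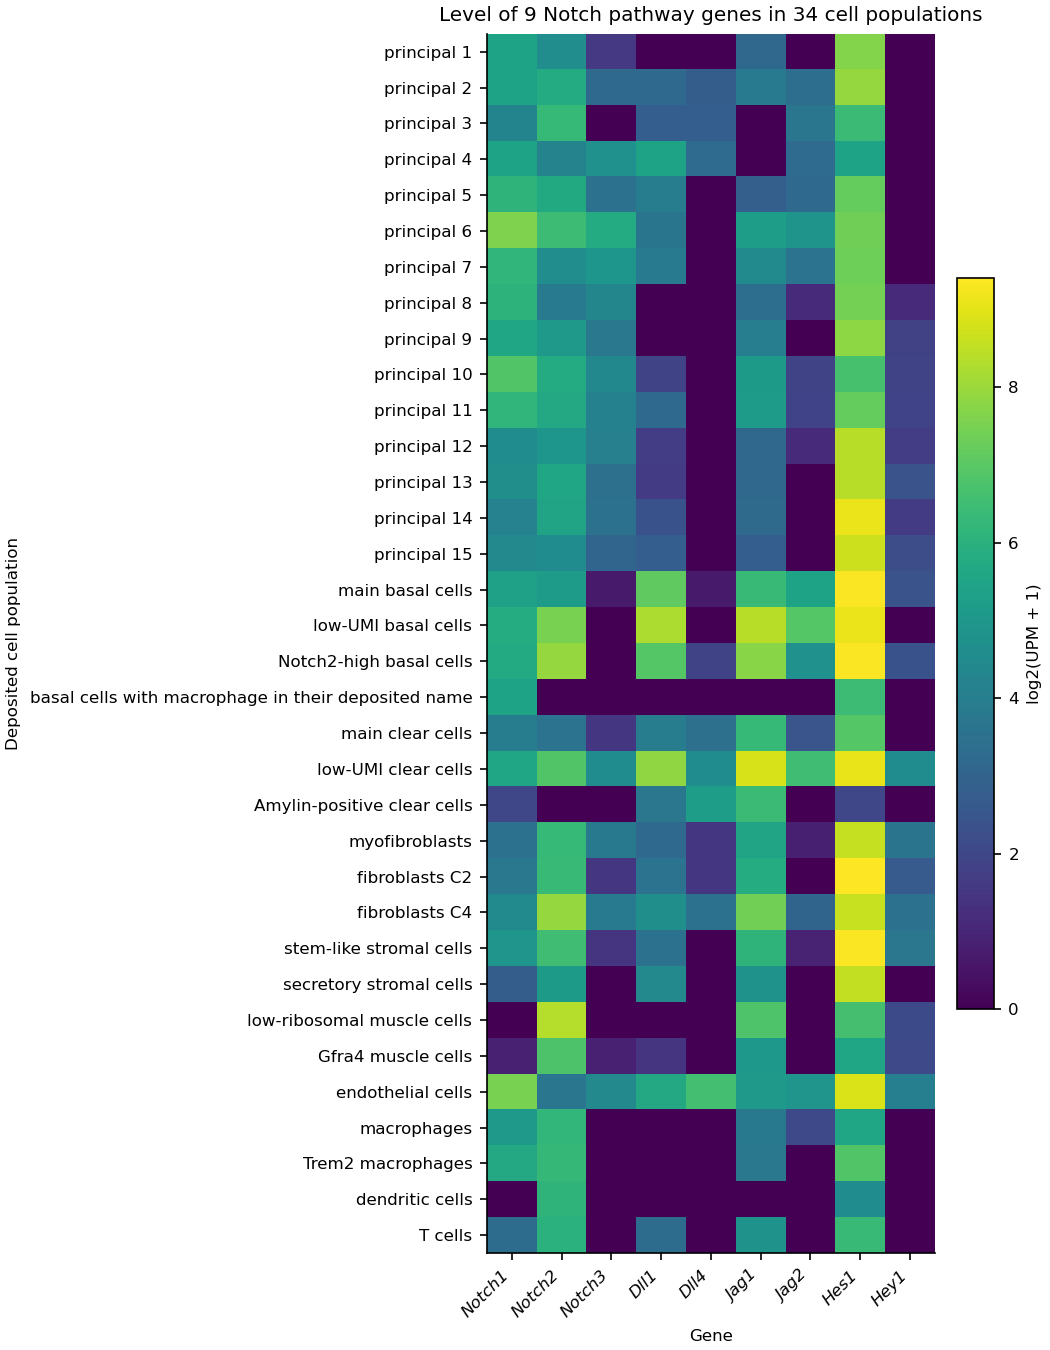
The color gives log2(UPM + 1) of each of the 9 genes (columns) in each of the 34 deposited populations (rows), all libraries summed, from dark (0) to yellow (highest). Hes1 is bright in principal 12 to 15, basal and stromal rows, Dll4 in the endothelial row, and Notch2 and Jag1 are brighter in the low-UMI basal and clear rows than in the main rows of the same type.

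The 34 populations refined this picture. For its analysis of ligands and receptors the study kept genes that 20% of cells expressed in 1 or more populations. With the same 20% set here on each population, 28 of 306 pairs of the 9 genes and 34 populations qualified, in 19 populations. The background is 7.76% of all gene and population pairs. Hes1 met it in 15 populations, Jag1 in 6, Dll1 and Notch2 in 3 each and Notch1 in the endothelial cells, while Notch3, Dll4, Jag2 and Hey1 met it in none. The threshold leans on depth: Dll4, so distinct in endothelial cells, reached 17.6% there, and only 19 pairs qualified once cells were thinned to 1000 UMIs. All 3 populations with Dll1 were basal, all 6 with Jag1 were basal or clear, and those with Notch2 were both muscle populations and 1 basal population.

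That basal population of 165 cells carries Notch2 in its deposited name, so its Notch2 level, 242 UPM against 35.9 UPM in the main basal cells (6.75 times), is part of its definition. The clustering used variable genes of the same cells, so the other values are description too. Jag1 stood at 210 UPM against 81.2 UPM, 2.59 times higher, where 2.33% of all genes tested were at least 2-fold higher by the same rule. Summed over libraries, Dll1 (120 against 139 UPM) and Hes1 (662 against 660 UPM) were near the main basal level. From caput to vas deferens the Dll1 ratio was 3.72 (1.88 to 6.83), 0.565 (0.347 to 0.876), 0.625 and 0.805. The Hes1 ratio was 2.05 (1.27 to 3.17), 0.828, 0.744 and 0.924. For both, the caput ratio, from 17 cells, was above 1 and the others were below. Being part of the definition, the Notch2 ratios by library, 3.52, 6.78, 11.3 and 4.96 from caput to vas deferens, are no separate result. The Jag1 ratios in the same order were 2.38, 1.80, 3.49 and 3.65.

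Several populations of shallow cells also showed higher levels of some receptors and ligands than their sister populations. Levels are shares of UMIs, and these cells hold fewer UMIs in all. Low-UMI basal cells held 62 Notch2 UMIs in 315 cells, and main basal cells 183 in 917 cells. Their median depths were 900 and 5654 UMIs. Notch1 was not called between these 2 populations. In the 315 low-UMI basal cells Notch2 stood at 183 UPM, 5.09 times (3.76 to 6.83) the main basal level, Jag1 at 336 UPM (4.14 times), Jag2 at 121 UPM (2.80 times) and Dll1 at 301 UPM (2.17 times). Hes1, at 566 UPM, was 0.858 times the main level with all libraries summed. Of all genes tested, 14.3% were at least 2-fold higher in these cells. Jag1 was higher in the low-UMI basal cells of every library, by 3.49, 5.04, 2.17 and 2.79 times from caput to vas deferens. In the same order Dll1 was 3.58, 3.27, 1.83 and 1.31 times the main level. For Hes1 the ratios were 1.57 (1.04 to 2.31), 1.17, 0.836 and 1.05, so its summed ratio below 1 did not hold in every library.

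By the 2-fold rule Jag1 was also higher in 3 other shallow populations, and Notch2 and Dll1 in 2 each. In fibroblasts C4, Notch2 was 3.13 times and Jag1 3.75 times the level of the myofibroblasts, with Hes1 at 395 against 385 UPM (background 10.9% of genes higher). Dll1 was 2.99 times higher there (1.11 to 6.89), on 7 and 32 UMIs. In the low-ribosomal muscle cells, Notch2 was 3.03 times, Jag1 3.61 times and Hes1 2.20 times (1.36 to 3.50) the level of the Gfra4 muscle cells (background 26.2%). In the 54 low-UMI clear cells, a population with Krt14, a basal keratin, in its deposited name, Jag1 reached 458 UPM, 5.87 times the main clear cells (background 11.1%). All 24 of their Hes1 UMIs came from the 13 cells of the vas deferens, which held 0 UMIs of the clear cell marker list and 35 of the basal list. Ribosomal protein genes took 7.10% of UMIs in the low-UMI basal cells against 25.0% in the main basal cells, 7.04% in fibroblasts C4 against 19.3% in the myofibroblasts, 2.80% against 13.6% in muscle and 2.83% against 15.6% in clear cells. Their part in these differences was not tested. Without the low-UMI populations the ratio of Notch2 in muscle to stroma was 1.43.

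The vas deferens was next compared with the epididymis (caput, corpus and cauda summed) within each cell type, calling a pair where levels were at least 2-fold apart, the interval left out 1 and at least 20 UMIs were present. Hes1 was higher in the vas deferens in 4 of the 7 cell types and Dll1 in basal and clear cells, while Notch1, Dll1 and Jag2 were lower in its principal cells and Dll4 in its endothelium. Of 63 pairs of gene and type, 27 had too few UMIs and 36 were compared, of which 8 were higher and 4 lower. Over all genes and types 8.27% of pairs were higher and 8.75% lower, 17% in either direction.

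**Figure D3:**
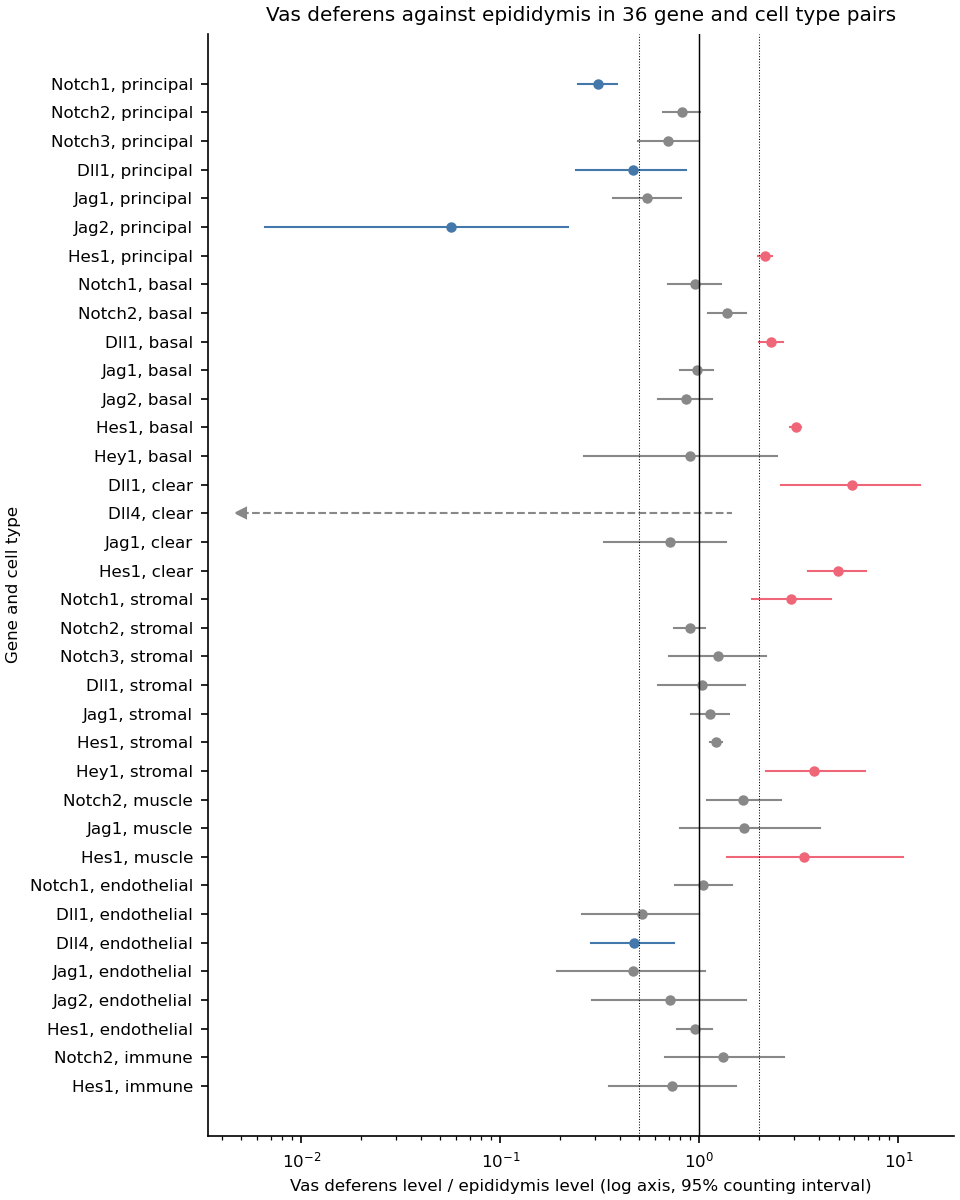
Points are ratios of the vas deferens level to the epididymis level (log axis) in the 36 pairs of gene and cell type with at least 20 UMIs, lines are 95% counting intervals, and dotted lines stand at 0.5 and 2. Red marks the 8 pairs called higher, blue the 4 called lower and grey the rest, and the dashed arrow is the interval of Dll4 in clear cells, where the vas deferens had no UMI and no ratio is given. Hes1 is red in principal, basal, clear and muscle cells and grey in stromal, endothelial and immune cells.

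In principal cells, 3 members were lower in the vas deferens and 1 was higher. Notch1 stood at 22.9 UPM in the vas deferens and 74.1 UPM in the epididymis, a ratio of 0.308 (0.246 to 0.383), and the vas deferens was below all 3 epididymal libraries. Jag2 showed 0.427 UPM, from 2 UMIs, against 7.58 UPM, a ratio of 0.0564 (0.00658 to 0.218), also below all 3, and 0.106 without the corpus library. Dll1, at 3.42 against 7.37 UPM, had a ratio of 0.463 (0.240 to 0.857) but lay within the range of the epididymal libraries, since the cauda was lower still at 1.15 UPM, and the ratio was 0.845 without the corpus library. Hes1 went the other way, with 202, 150 and 161 UPM in the caput, corpus and cauda and 368 UPM in the vas deferens, a ratio of 2.13 (1.96 to 2.32). In principal cells, which differ strongly between regions, 13.6% of all genes were called higher and 18.4% lower. The populations that make up most of the vas deferens principal cells showed Hes1 levels of 341, 338, 567 and 413 UPM in principal 12, 13, 14 and 15. Within populations found in both arms the direction differed: in principal 9 Hes1 stood at 137 UPM in the vas deferens and 268 UPM in the epididymis, a ratio of 0.510 (0.286 to 0.865), and in principal 11 at 235 against 109 UPM, 2.15 times.

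In basal cells, where fewer genes moved (6.25% higher, 5.48% lower), Hes1 was 3.04 times (2.86 to 3.24) higher in the vas deferens, 1373 against 451 UPM, and Dll1 2.29 times (2.00 to 2.62), 259 against 113 UPM. For both, the vas deferens was above all 3 epididymal libraries. The 3 basal populations with enough UMIs in every library each showed the Hes1 order caput, corpus, cauda, vas deferens: 166, 467, 868 and 1386 UPM in the main basal cells, 261, 546, 726 and 1461 UPM in the low-UMI basal cells, and 341, 387, 646 and 1280 UPM in the population named after Notch2. Dll1 kept that order in the main basal cells, with 51.7, 119, 143 and 264 UPM, but not in the low-UMI basal cells, with 185, 391, 261 and 345 UPM. Thinned to 1000 UMIs, Hes1 was found in 14.3%, 32.4%, 48.8% and 62.1% of basal cells from caput to vas deferens, so the order was present at equal depth.

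Clear cells showed the same Hes1 order at lower levels, 7.52, 42.8, 136 and 380 UPM, with a vas deferens level 4.94 times (3.51 to 6.90) that of the epididymis (background 5.26% higher). The caput and corpus values include the Amylin-positive clear cells, in which 1 Hes1 UMI was found in all (3.03 UPM), and the vas deferens holds none of those cells. In the main clear cells alone the order remained, at 16.3, 73.1, 140 and 235 UPM, and the ratio was 2.23 (background 4.59% higher). Over all clear cells the ratio was 12.7 without the cauda library, 2.98 without the low-UMI populations and 12.4 as a mean over single cells. Thinned shares of clear cells with a Hes1 UMI were 2.33%, 2.47%, 10.9% and 27.3%. Dll1 in clear cells, with 12 UMIs in the vas deferens and 18 in the epididymis, stood at 80.1 against 13.7 UPM, 5.84 times (2.57 to 12.8), and 3.67 times without the cauda library. In the main clear cells alone the Dll1 level was 24.4, 15.4, 3.54 and 49.9 UPM, on 2 to 7 UMIs a library.

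Marker lists moved with the region in the 348 clear cells. The clear cell list fell from 9660, 9031 and 8803 UPM in the epididymal libraries to 4232 UPM in the vas deferens. The basal list stood at 75.2, 64.2, 176 and 427 UPM and the pericyte list at 22.6, 10.7, 5.18 and 1228 UPM. In the main clear cells alone the clear list stood at 9198, 9342, 8960 and 4523 UPM. The basal list stood there at 65.0, 77.0, 168 and 207 UPM. In the 25 main clear cells of the vas deferens the pericyte list was carried by Rgs5, with 174 of 181 UMIs, and Cspg4 and Higd1b were at 0. Among clear cells without a UMI of the pericyte list, Hes1 was 6.37 times (4.10 to 9.65) and Dll1 6.44 times (2.09 to 16.9) higher in the vas deferens. Among those without a UMI of the basal list, Hes1 was 2.77 times higher (1.44 to 5.05), on 15 UMIs in 17 vas deferens cells, and Dll1 1.34 times (0.146 to 5.90), on 2 UMIs. Of the 12 Dll1 UMIs in the vas deferens, 10 thus lay in 21 cells that also held a basal list UMI. These splits were chosen after the values were seen.

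**Figure D4:**
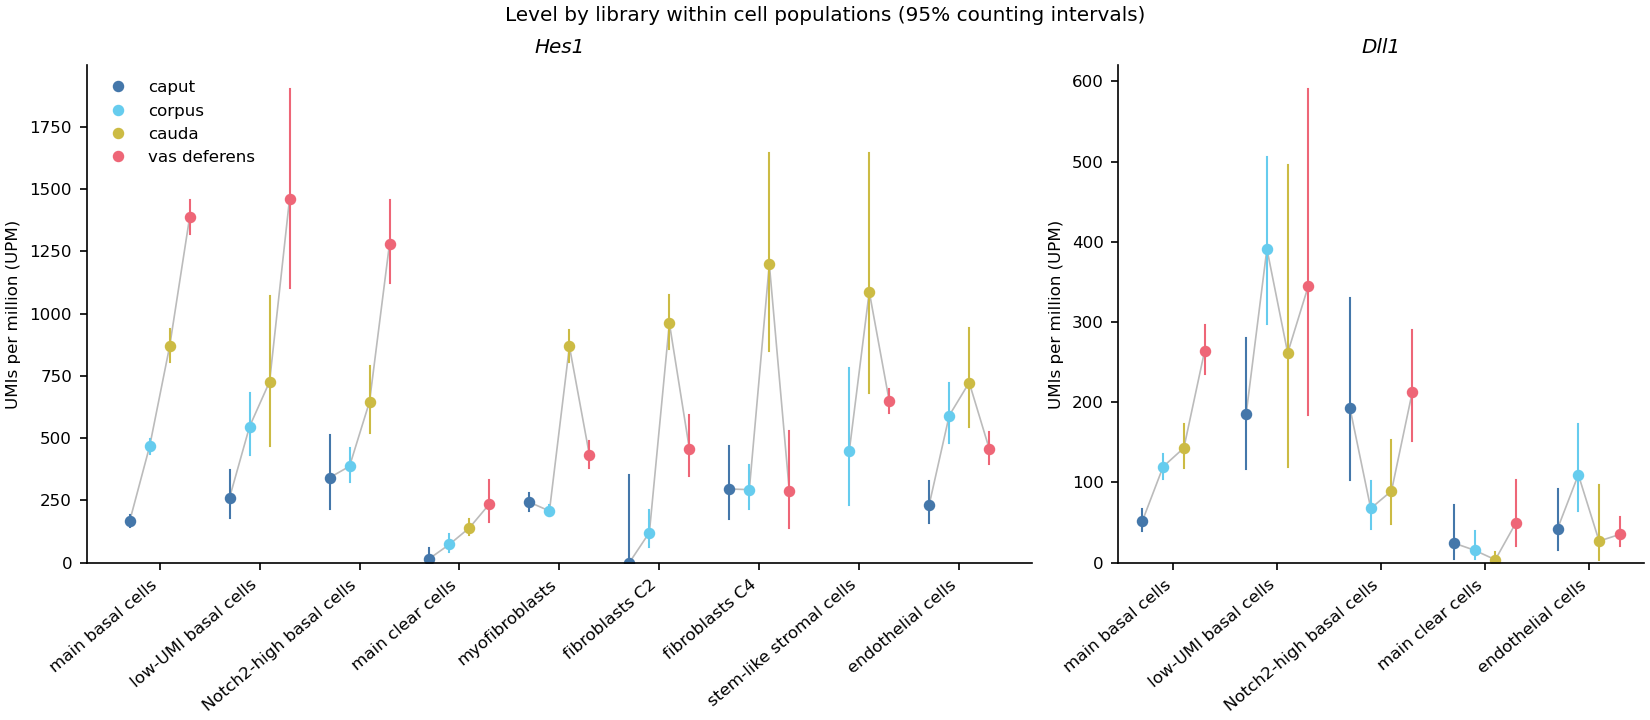
Levels of Hes1 in 9 populations (left) and Dll1 in 5 populations (right) by library, in UPM on linear axes from 0, with 95% counting intervals and a line joining the libraries in anatomical order. Hes1 climbs from caput to vas deferens in the 3 basal populations and the main clear cells, while in stromal and endothelial cells its highest point is the cauda. In endothelial cells the cauda interval overlaps that of the corpus.

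Stromal cells followed another course. Hes1 peaked in the cauda, with 242, 207, 868 and 432 UPM in the myofibroblasts and 287 to 1199 UPM over the libraries of fibroblasts C4, and the vas deferens was not called apart from the epididymis in the myofibroblasts (ratio 1.15, 1.0 to 1.31). Notch1 (23.1 against 8.04 UPM, 2.87 times, 1.84 to 4.57) and Hey1 (17.9 against 4.78 UPM, 3.76 times, 2.15 to 6.80) were higher in the stroma of the vas deferens, where 8.79% of genes were called higher, and both were above all 3 epididymal libraries. Without the corpus library the Notch1 ratio was 4.65. Within the myofibroblasts, which occur in every library, Notch1 stood at 31.2 against 6.5 UPM (4.8 times), Notch3 at 34.5 against 8.98 UPM (3.84 times) and Hey1 at 47.7 against 4.65 UPM (10.3 times), beside 9.85% of all genes called higher.

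The pericyte list moved with these stromal differences. Its summed level in stroma was 128, 244, 156 and 826 UPM from caput to vas deferens, and in the myofibroblasts 124, 259, 149 and 1287 UPM, where in the vas deferens Rgs5 gave 247 UMIs, Kcnj8 246, Pdgfrb, which fibroblasts also express, 151, Abcc9 123, Cspg4 13 and Higd1b 3. Of the stromal UMIs of the vas deferens, 41 of 45 for Hey1, 44 of 58 for Notch1 and 20 of 25 for Notch3 lay in the 581 of 1015 cells that held a UMI of this list. Among stromal cells without such a UMI, Hey1 stood at 4.24 UPM in the vas deferens and 5.23 UPM in the epididymis, a ratio of 0.810 (0.194 to 2.58), and Notch1 at 14.8 against 9.34 UPM, 1.59 times (0.763 to 3.17). Among those with one, Hey1 stood at 26.2 against 3.84 UPM (6.82 times, 2.70 to 22.1) and Notch1 at 28.1 against 5.37 UPM (5.23 times, 2.34 to 13.8). Notch3 did not share this pattern. Its stromal ratio was 0.693 (0.363 to 1.31) with a list UMI and 1.77 (0.456 to 6.14) without. In the myofibroblasts its ratio was 1.55 (0.787 to 3.00) with a list UMI. Without one it was 13.1 (2.12 to 61.5), on 3 and 6 UMIs. Deeper cells are more likely to hold a UMI of any list, and the part of pericyte-list cells in these differences was not tested.

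Muscle cells showed Hes1 at 63.4 UPM in the vas deferens and 19 UPM in the epididymis (3.34 times, 1.37 to 10.6, background 6.3%), on 80 and 5 UMIs. The ratio reversed to 0.210 without the cauda library, which leaves the few corpus muscle cells as the epididymal arm, and it was 8.04 without the corpus library and 12.5 without the low-ribosomal muscle cells.

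In endothelial cells Dll4 stood at 63.8 UPM in the vas deferens and 137 UPM in the epididymis, a ratio of 0.467 (0.286 to 0.749), and the vas deferens was below all 3 epididymal libraries (7.86% of genes lower). Thinned shares with a Dll4 UMI were 21.6%, 15.6%, 9.09% and 3.33% from caput to vas deferens. The cauda share rests on few cells, since that library held 12 endothelial cells before thinning. By level, corpus and cauda were close, at 110 and 107 UPM. The arterial marker list (Gja4, Gja5, Sox17, Efnb2 and Bmx) stood at 558, 402, 643 and 187 UPM in endothelial cells. The venous list (Nr2f2, Selp, Ackr1, Vwf and Ephb4) stood at 1801, 3578, 1847 and 4040 UPM. Both were at their extreme in the vas deferens, and their part in the Dll4 difference was not tested. Of the 5 arterial genes, 4 were highest in endothelial cells and 1 had no UMI there. Notch1 and Hes1 in the same cells were not called, the Hes1 ratio being 0.946 (0.770 to 1.16). Within 20 populations that both arms held, 61 pairs were compared and 15 called, 13 higher and 2 lower (background 5.53% and 4.68%), the 2 lower ones being Notch1 in principal 11 and Dll4 in endothelial cells.

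Genes known to respond to tissue dissociation also differed between libraries. The summed level of 21 such genes, a list chosen after the values were seen, was 27165, 15341, 13836 and 22948 UPM in basal cells, 20426, 15193, 12970 and 11735 UPM in clear cells and 27283, 24247, 20240 and 14958 UPM in endothelial cells from caput to vas deferens. It was highest in the caput, where Hes1 was lowest in these 3 types. From caput to vas deferens it fell in clear cells, where Hes1 rose, while in basal cells the vas deferens had the second highest sum. In stromal cells, where Hes1 peaked in the cauda, the sums were 36571, 20004, 16496 and 19349 UPM, lowest in the cauda. The part of these genes in the Hes1 differences was not tested.

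Of 51 other genes of the Notch pathway, 50 were in the table and 45 had at least 20 UMIs in a cell type, and 14 passed the 4-fold rule, beside the 29% of all genes given above, none of them in principal cells. The 10 with the highest ratio to the median type are named. Among ligands and relatives, Dlk2, a non-canonical ligand, stood at 80.7 UPM in basal cells, 110 times the median type, and Dner, a Delta-like transmembrane protein, at 77.5 UPM in stromal cells (21.6 times), where Dlk1, another non-canonical ligand, stood at 9.56 UPM (7.98 times). Among the Fringe enzymes, which add sugars to the receptors, Mfng was highest in endothelial cells (49.1 UPM, 67.1 times) and Lfng in immune cells (77.3 UPM, 27.9 times). Endothelial cells also led for the feedback gene Nrarp, at 68.2 UPM (9.32 times), and the ubiquitin ligase Neurl3, at 105 UPM (12.4 times). Clear cells led for Neurl1a, a ligase that acts on ligands, at 72.5 UPM (42.2 times), and Aph1c, a gamma-secretase subunit, passed in them. Immune cells led for Dtx4, a Deltex ubiquitin ligase, at 46.4 UPM (15.0 times).

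Between regions, 187 pairs of these genes and cell types were compared, with 13 higher and 15 lower in the vas deferens, no larger a part than the 8.27% and 8.75% of all genes and types. The following were picked after their values were seen. In principal cells the target Heyl stood at 32.7 UPM in the vas deferens and 4.71 UPM in the epididymis (6.94 times, 4.46 to 11.3), and the target Hes5 had 62 UMIs (13.2 UPM) against none, with 17 as the lower end of the interval of its ratio. Hes6 was lower there, with a ratio of 0.284, as was Ncstn, a gamma-secretase subunit, at 0.275. In endothelial cells Mfng was higher (68.2 against 26.3 UPM, 2.60 times) and Nrarp lower (44.0 against 97.2 UPM, a ratio of 0.453), the direction that Dll4 had. Dner was 2.61 times higher in the stroma of the vas deferens.

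Over the 30 populations with at least 50 cells, the genes whose log2(UPM + 1) levels were most like those of each member were listed by Pearson correlation among 11083 genes with at least 100 UMIs. The populations share libraries, depth and the clustering, so the values are a description. For Dll1 these genes were Adm (0.92), Lamb3 (0.85) and F3 (0.79), for Jag2 Lamb3 (0.88), Mia (0.86) and Ltb4r1 (0.85), and for Jag1 Mapk7 (0.92), Zswim6 (0.91) and Rela (0.91). Dll4 was most like 8430408G22Rik (0.82), Vwf (0.81) and Afap1l1 (0.76), and Hes1 most like Sfrp1 (0.75), Fas (0.75) and Vldlr (0.73). The receptors were led by N4bp3 for Notch1 (0.75), Rnft1 for Notch2 (0.78) and Egf for Notch3 (0.79), and Hey1 by 2310022B05Rik (0.77). Among the 9 genes themselves, Dll1 and Jag2 were the most alike (0.77), followed by Notch1 and Notch3 (0.58) and Notch1 and Jag2 (0.57), while Hes1 was closest to Hey1 (0.52) and Notch2 (0.50).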

How the data were processed

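The deposited values are UMI counts per gene and cell, with a table that gives each cell's library and population. Per the study's methods and the submitters' processing notes, the authors demultiplexed reads with bcl2fastq, aligned them to mm10 with HISAT2 2.0.4, counted UMIs per gene with ESAT, ignored reads of several origins, kept barcodes within limits on UMIs and took ambient RNA out of each cell with a modified SoupX, so the counts are what was left after that step. Whether counting used strand is not given in the sources used here, and Notch1, Notch3, Dll1 and Dll4 overlap genes on the opposite strand, none of which is in the table. Cells were clustered by the authors. Bulk RNA-Seq was not analysed here.

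From these counts, UMIs were summed by type or population and library with Python 3.11.15, numpy 2.4.6, pandas 2.3.3 and scipy 1.17.1, and scikit-learn 1.9.0 was used for a doublet score. Levels are per 1000000 UMIs, so each is a share of all UMIs of its cells. Groups of cells with fewer than 10000 UMIs in a library gave no library value. Levels have exact Poisson intervals, ratios exact conditional binomial intervals and shares Clopper-Pearson intervals, all at 95%, and a count of 0 was taken to allow 3 UMIs. PCR and dissociation error are not covered. Genes were compared between types by a fixed size (4-fold over the median, 20 UMIs) and between regions by another (2-fold, 20 UMIs, interval without 1), since each region has 1 sample. Shares were thinned to 1000 UMIs per cell. The number of cells marked as doublets was set in advance, at a rate of 0.8% per 1000 cells of a library. By score this marked 178 of 8880 cells (16 to 98 per library), which were kept in the main values and left out in an alternative. Only 32.6% to 62.1% of simulated doublets reached the score threshold of their library, so leaving these cells out need not remove all mixed cells. The scripts were tested on simulated data.

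All 9 members were named in every type and library, with the 3 genes most like each. Of 51 other pathway genes, those past the 4-fold rule were named, up to the 10 highest by ratio. Promoters came from RefSeq, where 7 of the 9 members matched. The members and lists were chosen with earlier results of these data known. Dissociation genes, the splits by pericyte, basal and vessel markers within a region and the comparison of low-UMI populations were chosen after the values were seen. Alternatives changed the cells, doublets, weighting of cells or libraries, denominator, libraries, folds, minimum counts, thinning and measure of likeness.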

Additional observations from a re-analysis of the deposited data

Results flagged for a closer look

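Notch1 differed between the vas deferens and the epididymis in opposite directions in 2 cell types. In stromal cells the level in the vas deferens was 2.87 times that of the epididymis, and it lay above all 3 epididymal libraries. In principal cells the ratio was 0.308, and the vas deferens lay below all 3. The difference between the 2 ratios was not tested, since each region is 1 library.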

How the results depend on the processing

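No paired analysis was possible because each region has 1 sample. The ratio of the highest cell type to the next was recomputed in 99 combinations of gene and setting. In 81 it stayed within its counting interval. With a mean over cells of each cell's own level it was 3.03 for Notch1, 2.58 for Notch2, 3.17 for Dll4, 2.79 for Jag2 and 1.59 for Hes1, and with libraries weighted equally 2.93 for Notch1 and 1.54 for Notch2. Without the vas deferens it was 2.41 for Notch1, 1.14 for Notch2, 2.36 for Notch3, 1.66 for Dll1 and 4.95 for Hey1, and it reversed to 0.933 for Hes1. Without the caput it was 0.167 for Notch3 and 0.657 for Hey1, and without the corpus 4.37 for Dll1. The 2 settings added after the data were seen gave 0.163 for Notch3, without the endothelial cells holding 3 or more pericyte marker UMIs, and 1.43 for Notch2, without low-UMI populations. The count of 4 genes past the 4-fold rule became 9 at 2-fold and was between 3 and 5 elsewhere. The count of 12 region calls became 3 at 4-fold and was between 10 and 15 elsewhere. Hes1 in muscle reversed to 0.210 without the cauda. Of 96 recomputed region ratios 95 stayed on their side of 1. The count of 28 pairs at a share of 20% became 6 with cells thinned to 500 UMIs, 75 at 10% and 44 in cells with at least 1000 UMIs. Of the 27 most alike genes 13 were shared with a pseudocount of 10, 11 with populations of at least 100 cells and 8 with Spearman's measure. The cause of these changes was not tested. Notch3, Dll4, Jag2 and Hey1 are limited by depth, with few UMIs outside their highest types.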

Other observations

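Within the endothelial population, the share of cells with a Dll4 UMI was lower among those with venous markers when all libraries were pooled and cells thinned to 1000 UMIs. Dll4 was found in 19.4% (7.45 to 37.5) of 31 cells with a UMI of an arterial list (Gja4, Gja5, Sox17, Efnb2 and Bmx) and in 7.10% (3.72 to 12.1) of the 169 others. It was found in 2.88% (0.599 to 8.20) of 104 cells with a UMI of a venous list (Nr2f2, Selp, Ackr1, Vwf and Ephb4) and in 15.6% (9.02 to 24.5) of the 96 others. Notch1 was found in 23.1% (15.4 to 32.4) of the cells with a venous list UMI and in 12.5% (6.63 to 20.8) of the others. Dll4 was found in 8.33% of cells with a Notch1 UMI and in 9.15% of those without. These shares pool 4 libraries in which Dll4 and both lists differ. Within the vas deferens Dll4 was found in 2 of 81 cells with a venous list UMI, 2.47% (0.30 to 8.64), and in 2 of 39 others, 5.13% (0.627 to 17.3). Within the epididymal libraries it was found in 1 of 23 such cells, 4.35% (0.11 to 21.9), and in 13 of 57 others, 22.8% (12.7 to 35.8). For the arterial list the shares were 3 of 13 against 1 of 107 cells in the vas deferens and 3 of 18 against 11 of 62 in the epididymis. The venous intervals overlap in each arm, so the pooled contrast was not resolved within it.

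Notch2 was found more often in basal and stromal cells that held a Jag1 UMI than in those that did not, at the same depth. In basal cells a Notch2 UMI was found in 18.3% (11.9 to 26.1) of 126 cells with a Jag1 UMI and in 4.96% (3.71 to 6.47) of those without. In stromal cells it was found in 20.2% (12.3 to 30.4) of 84 cells with a Jag1 UMI and in 7.14% (5.93 to 8.51) of those without. Both genes were high in the Notch2-high basal cells, a population that carries Notch2 in its deposited name. Within it the shares were 24.1% (10.3 to 43.5) of 29 cells and 20.9% (13.9 to 29.4) of 115. Without it, a value added after the data were seen, they were 16.5% (9.73 to 25.4) of 97 and 2.95% (1.96 to 4.27) of 914 basal cells. In the main basal cells alone they were 9.23% (3.46 to 19.02) of 65 and 1.99% (1.14 to 3.204) of 806. In the low-UMI basal cells, where both genes were also high, they were 31.2% (16.1 to 50.0) of 32 and 11% (5.62 to 18.8) of 100. These low-UMI cells gave 10 of the 16 basal cells with both genes outside the Notch2-high population. In the myofibroblasts the shares were 26.5% (12.9 to 44.4) of 34 and 6.51% (4.94 to 8.39) of 845. All these shares pool 4 libraries, and their intervals count cells and not animals.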
